A study of Mus musculus with 5 samples.

Results

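The subject is a set of 36 genes of nucleolar ribosome biogenesis, chosen by symbol from a fixed list, of 32285 genes in the files. Their levels were followed in single mouse T cells, in each of 5 libraries and in cells with and without transcripts of Irf4 or Nr4a1, both induced early after stimulation of the T cell receptor. Ribosomes are assembled in the nucleolus, where RNA polymerase I transcribes the ribosomal RNA precursor. Small nucleolar ribonucleoproteins (snoRNPs) modify that precursor, and assembly factors fold, cut and export it as the small and the large subunit. Resting T cells hold little of this machinery and are known to enlarge their nucleoli when stimulated, in part through the transcription factor Myc.

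The study profiled OT-II cells, CD4 T cells whose transgenic receptor sees an ovalbumin peptide, by the 5′ chemistry of 10x Genomics. The T cells were enriched by negative selection from the spleen of a naive mouse of that strain. Their partners were antigen-presenting fibroblasts of pancreatic tumors of the mouse (apCAFs), isolated by sorting. The labels give 5 groups of 1 sample each, namely OT-II cells alone, sKPC apCAF coculture with DMSO, sKPC apCAF coculture with OVA, rKPC apCAF coculture with DMSO, and rKPC apCAF coculture with OVA. sKPC and rKPC are tumor clones, DMSO is the solvent control, and OVA is ovalbumin.

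The libraries could not be tied to these groups. Matrix G held barcodes of 3 libraries, against 2 samples in its labels, and matrix H held 2 libraries, against 3 samples in its labels. They are called Ga, Gb, Gc, Ha and Hb, and no difference among them is given as an effect of coculture, clone or OVA. Both matrices together held 5 libraries, and the labels name 5 samples. Whether the matrix names were exchanged, or a matrix holds a sample outside the labels, cannot be told from these data. With 1 library each there was no replicate check and no test, and every interval covers counting error only, treating each UMI as independent.

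Some members held features that did not enter their choice. In the GENCODE M21 annotation of GRCm38, 8 of the 36 members, or 22.2%, hold a snoRNA gene inside them on the same strand, against 251 of 21702 protein coding genes of the files, or 1.16%. Nop56 holds 5, Nop58 holds 4, Ncl, Wdr43 and Gnl3 hold 3 each, Tsr1 and Ppan hold 2 each and Dkc1 holds 1. These hosts include genes of every role group except RNA polymerase I.

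Promoters are shown because Myc, which binds the E-box CACGTG, is known to act on many genes of this pathway and had its own UMIs in these cells. RefSeq promoters of GRCm38.p6 were found for 31 of the 36 members, and Bop1, Fbl, Npm1, Rrp12 and Rrs1 were without an entry. CACGTG, which reads the same on both strands, was in the 250 bases before the start of 1 of the 31 members, or 3.23%, against 6.86% of 27025 genes and 10.1% of 9038 genes detected here with at least 100 UMIs. In the 50 bases from the start it was in 6 members, or 19.4%, against 1.28% of all genes and 1.99% of detected genes. The 6 were Ltv1, Mybbp1a, Pes1, Tsr1, Utp20 and Wdr43, and the 1 before the start was Nop2. The window from the start, and the comparison with 7 other motifs, were added after the first window had been seen. On either strand before the start, CCGGAAG was in 22.6% of members, against 7.83% of all genes and 17.1% of detected genes, and GGGCGG in 67.7%, against 35.4% and 62.9%. CCAAT was in 29.0% of members, against 37.5% of all genes and 40.7% of detected genes, TATAAA in 9.68%, against 14.3% and 7.70%, and ATGGCGGC in 6.45%, against 1.19% and 2.47%. In the 50 bases from the start, CCGGAAG was in 12.9% of members, against 2.52% of all genes and 6.10% of detected genes, and ATGGCGGC in 6.45%, against 1.42% and 3.74%. In that window GGGCGG was in 3.23% of members, against 9.45% and 18.5%, CCAAT in 6.45%, against 6.04% and 4.99%, and TATAAA in 0, against 1.5% and 0.741%. Another pair of longer motifs was in 0 of the 31 members in either window. A match describes letters in a window and shows no binding.

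The promoter of the only member with the motif before the start and those of 3 members with it just after the start are printed from 100 bases before to 30 bases from the RefSeq start, all on the plus strand, with CACGTG in capitals. The motif begins 60 bases before the start in Nop2, and at base 3 of the transcript in Pes1, base 25 in Tsr1 and base 18 in Wdr43. They are Nop2 at chr6:125131783-125131912, Pes1 at chr11:3963875-3964004, Tsr1 at chr11:74897980-74898109 and Wdr43 at chr17:71616115-71616244.
Nop2: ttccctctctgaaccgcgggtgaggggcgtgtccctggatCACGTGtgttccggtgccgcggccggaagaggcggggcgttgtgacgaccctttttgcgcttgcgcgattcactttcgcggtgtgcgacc
Pes1: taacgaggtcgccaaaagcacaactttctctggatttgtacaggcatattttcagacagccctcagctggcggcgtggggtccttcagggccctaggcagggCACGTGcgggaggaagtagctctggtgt
Tsr1: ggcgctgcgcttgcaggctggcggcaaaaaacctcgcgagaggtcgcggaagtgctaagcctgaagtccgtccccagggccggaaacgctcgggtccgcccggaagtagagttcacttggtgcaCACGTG
Wdr43: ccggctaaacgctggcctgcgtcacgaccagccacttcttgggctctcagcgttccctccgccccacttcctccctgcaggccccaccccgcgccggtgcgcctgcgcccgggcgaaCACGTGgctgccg

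Cells were taken as barcodes with at least 500 UMIs (unique molecular identifiers, 1 per captured RNA molecule), at most 10% of them mitochondrial, and at least 1 UMI of Cd3d, Cd3e or Cd3g. These were 22874 of 25623 barcodes, between 3081 and 6419 a library. Each was thinned at random to 3000 UMIs so that cells were compared at equal depth, which left out 1211 shallower barcodes, between 169 and 330 a library. Before thinning, the median barcode of the 21663 kept held between 8055 and 8889 UMIs in the 5 libraries. Pairs of libraries shared between 2 and 14 barcode sequences. The 8 T cell markers, Trac and Cd4 among them, were all detected and summed to 5807 CPM in Gc and to between 8913 and 9709 CPM in the other libraries, where CPM is UMIs per 1000000 UMIs. The 5 fibroblast markers summed to between 0 and 4.58 CPM.

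The summed level of the 36 members was higher in Ga and Gc than in the other libraries. It came to 3090 CPM (95% Poisson interval 3062–3119) in Ga and 2886 CPM (2861–2911) in Gc, against 2321 CPM (2289–2353) in Gb, 2300 CPM (2272–2327) in Ha and 2314 CPM (2286–2342) in Hb. The sum leans on 3 genes, since Npm1 took 24.6%, Ncl 15.8% and Wdr12 13.0% of all member UMIs. Without these 3 genes the sum was 1597 CPM in Ga and 1431 in Gc, and 943 in Gb, 946 in Ha and 966 in Hb. Gb, Ha and Hb lay close together on both sums, although Gb belongs to matrix G and the others to matrix H.

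**Figure D1:**
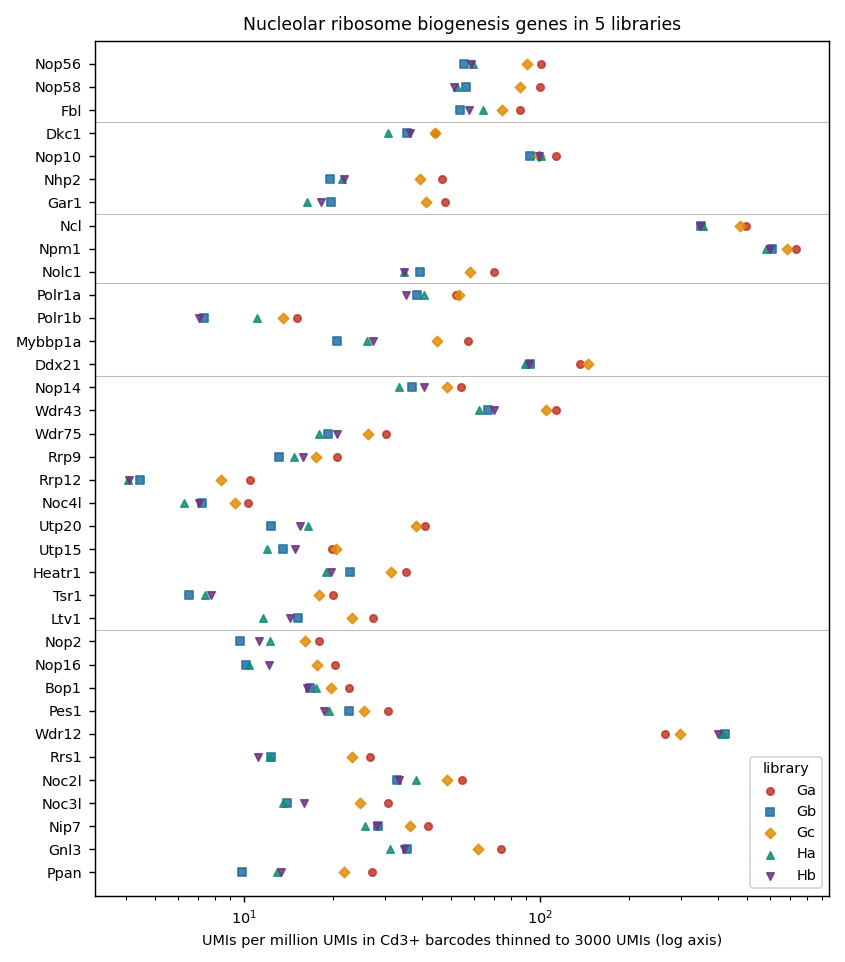
Level of each of the 36 members in Cd3+ barcodes thinned to 3000 UMIs, in CPM on a log axis, with 1 symbol per library and lines between the role groups. Ga and Gc sit to the right of Gb, Ha and Hb for 34 of the 36 genes. Nop10 has overlapping libraries and Wdr12, at 264 to 423 CPM, has the opposite order.

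Ratios were formed only between libraries of the same matrix. In Ga over Gb, 23 of the 36 members were at least 1.5-fold higher, against 9.84% of all measured genes, and 1 was at least 1.5-fold lower, against 5.87%. The median member ratio was 1.68 and that of all measured genes 1.01. In Gc over Gb, 19 members were at least 1.5-fold higher, against 9.44% of measured genes, and 0 were lower, against 5.22%, with a median of 1.51. Both ratios use the same library Gb, so they are not separate observations. Between Gc and Ga, 0 members differed 1.5-fold in either direction, against 5.70% higher and 4.87% lower in the background, and the ratio of the sums was 0.934 (0.922–0.946). In Hb over Ha, 0 members were higher and 1 was lower, against 5.50% in each direction. That member was Polr1b, at 7.06 CPM in Hb and 11.1 CPM in Ha.

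The gate for T cells moved these counts. Among Cd3+ barcodes that also held a Cd4 UMI and no UMI of Trdc, a gene of gamma-delta T cells, 13 members were at least 1.5-fold higher in Ga over Gb, against 8.44% of measured genes, and 9 in Gc over Gb, against 8.39%. The ratios of the sums were then 1.12 and 1.07, against 1.33 and 1.24 over all Cd3+ barcodes. Without barcodes holding 2 or more UMIs of B, NK, myeloid, erythroid, fibroblast or mesothelial markers they were 1.51 and 1.37. The 4 hemoglobin genes, markers of red blood cells, summed to 1253 CPM in Ga, 822 in Gc, 726 in Gb, 370 in Ha and 811 in Hb. In Ga they summed to 51.7 CPM in barcodes with a UMI of Irf4 or Nr4a1 and to 1529 CPM without. In Gc they summed to 479 CPM with and 888 CPM without. Cd4 was at 88.1 CPM with and 193 CPM without in Ga, and at 88.0 and 196 CPM in Gc. Both filters thus drew on genes that differed with these UMIs, and the part of this in the ratios was not tested.

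Box C/D snoRNPs, which methylate ribosomal RNA, were represented by 3 members. Nop56, a core protein of the particle, lay at 101 CPM in Ga and 90.3 in Gc, and at 55.3 in Gb, 59.4 in Ha and 58.4 in Hb. Its partner Nop58 lay at 100 CPM in Ga and 85.4 in Gc, and at 56.5 in Gb, 52.4 in Ha and 51.2 in Hb. Fbl, fibrillarin, the methyltransferase itself, lay at 85.6 CPM in Ga and 74.3 in Gc, and at 53.9 in Gb, 64.1 in Ha and 57.8 in Hb. For each of the 3 genes the levels of Ga and Gc were above all the others, and Fbl had the narrowest gap.

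Among the 4 members of the box H/ACA snoRNP, which converts uridine to pseudouridine, Nop10 stood apart from its partners. Nop10, a small core protein, lay at 113 CPM in Ga and 99.5 in Gc, and at 92.6 in Gb, 101 in Ha and 99.3 in Hb, so only Ga was above the rest. Dkc1, dyskerin, the pseudouridine synthase, lay at 44.2 CPM in Ga and 44.1 in Gc, and at 35.7 in Gb, 30.7 in Ha and 36.3 in Hb. The other core proteins had wider gaps. Nhp2 lay at 46.8 CPM in Ga and 39.3 in Gc, and at 19.6 in Gb, 21.4 in Ha and 21.8 in Hb. Gar1 lay at 47.7 CPM in Ga and 41.2 in Gc, and at 19.7 in Gb, 16.3 in Ha and 18.3 in Hb.

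The scaffold and chaperone genes carried the most UMIs. Npm1, nucleophosmin, a nucleolar chaperone, lay at 733 CPM in Ga and 684 in Gc, and at 606 in Gb, 582 in Ha and 600 in Hb. Ncl, nucleolin, an RNA-binding protein of the nucleolus, lay at 496 CPM in Ga and 473 in Gc, and at 349 in Gb, 357 in Ha and 348 in Hb. Nolc1, which binds snoRNPs on their way to the nucleolus, lay at 69.8 CPM in Ga and 57.9 in Gc, and at 39.3 in Gb, 34.8 in Ha and 34.7 in Hb. Ga and Gc were the high pair for all 3, with ratios of Ga over Gb of 1.21 for Npm1, 1.42 for Ncl and 1.78 for Nolc1.

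Of the RNA polymerase I genes and regulators, Ddx21, an RNA helicase that links transcription by this polymerase to processing, lay at 137 CPM in Ga and 146 in Gc, and at 92.6 in Gb, 88.8 in Ha and 92.1 in Hb. Polr1a, the largest subunit of the polymerase, lay at 52.3 CPM in Ga and 53.5 in Gc, and at 38.5 in Gb, 40.6 in Ha and 35.4 in Hb. Mybbp1a, a nucleolar Myb-binding protein, lay at 57.0 CPM in Ga and 45.0 in Gc, and at 20.6 in Gb, 26.1 in Ha and 27.3 in Hb. Mybbp1a was 2.76-fold higher in Ga than in Gb (2.35–3.26), the widest difference in this role group.

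Small subunit factors summed to 382 CPM in Ga and 346 in Gc, and to 219 in Gb, 205 in Ha and 230 in Hb. Wdr43, of the early complex on the nascent precursor, lay at 113 CPM in Ga and 105 in Gc, and at 66.7 in Gb, 62.5 in Ha and 70.0 in Hb. Nop14, of the small subunit processome, lay at 54.0 CPM in Ga and 48.5 in Gc, and at 37.1 in Gb, 33.5 in Ha and 40.6 in Hb. Utp20, a long processome protein, lay at 40.8 CPM in Ga and 38.2 in Gc, and at 12.4 in Gb, 16.5 in Ha and 15.5 in Hb. Its ratio of 3.30 in Ga over Gb (2.69–4.09) was the highest of the 36 members in that comparison. Tsr1, which acts late in small subunit maturation, lay at 20 CPM in Ga and 17.9 in Gc, and at 6.52 in Gb, 7.38 in Ha and 7.77 in Hb. Rrp12, which takes part in export of the particles, lay at 10.5 CPM in Ga and 8.38 in Gc, and at 4.46 in Gb, 4.07 in Ha and 4.11 in Hb.

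Large subunit factors summed to between 593 and 616 CPM in all 5 libraries, and Wdr12, at 264 to 423 CPM of that sum, ran against the others. Wdr12 lay at 264 CPM in Ga and 298 in Gc, and at 423 in Gb, 414 in Ha and 401 in Hb, so the high pair of the other genes was the low pair here. It forms the PeBoW complex with Pes1 and Bop1, and neither partner followed it. Bop1 lay at 22.7 CPM in Ga and 19.7 in Gc, and at 16.8 in Gb, 17.6 in Ha and 16.4 in Hb, and Pes1 at 30.6 CPM in Ga and 25.4 in Gc, and at 22.6 in Gb, 19.4 in Ha and 18.7 in Hb. Gnl3, nucleostemin, a nucleolar GTP-binding protein, lay at 73.9 CPM in Ga and 61.8 in Gc, and at 35.5 in Gb, 31.3 in Ha and 34.8 in Hb. Noc2l, the mouse counterpart of a yeast pre-ribosome export factor, lay at 54.8 CPM in Ga and 48.4 in Gc, and at 33.0 in Gb, 38.1 in Ha and 33.5 in Hb. Gnl3 and Noc2l thus had the order of the small subunit factors.

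Wdr12 lies on chromosome 1 at 60069785–60098645 of GRCm38 on the minus strand, and its 5′ end overlaps Carf, which runs from 60098247 to 60153953 on the plus strand. In all, 15 of the 36 members overlap a counted gene on the opposite strand, and 0 overlap one on their own strand. No source used here says whether counting used the strand, and without it the UMIs of such pairs cannot be told apart.

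The libraries also differed in how many T cells held Irf4 or Nr4a1, a transcription factor and a nuclear receptor induced by receptor signals. After thinning, a UMI of either gene was found in 935 of 5004 Cd3+ barcodes of Ga, or 18.7% (Clopper-Pearson 95% interval 17.6–19.8), and in 992 of 6089 of Gc, or 16.3% (15.4–17.2). It was found in 28 of 2912 in Gb, or 0.962%, in 27 of 3928 in Ha, or 0.687%, and in 17 of 3730 in Hb, or 0.456%. Without thinning the shares were 25.2% in Ga and 22.5% in Gc, against 2.21% in Gb, 2.05% in Ha and 1.30% in Hb. In hemoglobin-rich barcodes without a Cd3 UMI, which should lack both genes, the share was 1 of 139, or 0.719% (0.0182–3.94), at a median of 8849 UMIs before thinning, and 3.03% unthinned at 8273 UMIs. Those barcodes were pooled over all 5 libraries. After thinning, the shares of Gb, Ha and Hb lay inside the interval of that share, and those of Ga and Gc lay above it. From 1 positive barcode the interval is wide, so it cannot tell whether the UMIs in Gb, Ha and Hb are background.

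Within Ga and Gc the members were far higher in barcodes with a UMI of Irf4 or Nr4a1 than in barcodes without one. Their sum was 6487 CPM with and 2310 CPM without in Ga, a ratio of 2.81 (exact binomial interval 2.76–2.86). In Gc it was 6116 CPM with and 2257 CPM without, a ratio of 2.71 (2.66–2.76). In each library 34 of the 36 members were at least 2-fold higher with, against 10.1% of measured genes in Ga and 9.69% in Gc. Wdr12 was at least 2-fold lower, against 15.3% of genes in Ga and 13.1% in Gc, and Nop10 passed the 2-fold mark in neither. The median member ratio was 3.60 in Ga and 3.50 in Gc, against 0.941 and 0.960 over all measured genes. The 36 member ratios of Ga and Gc ranked alike, with a Spearman rho of 0.939 across genes, which are not independent replicates.

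**Figure D2:**
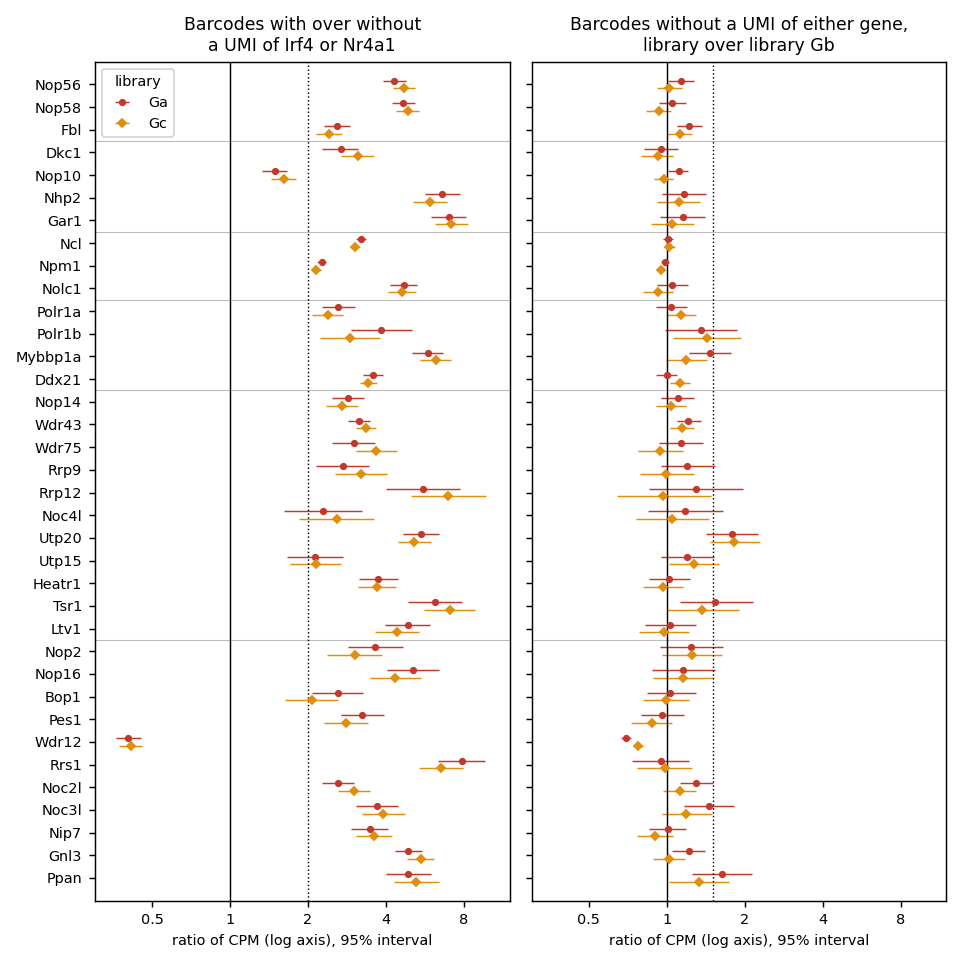
Ratio of CPM for each member, on log axes with 95% exact binomial intervals, for barcodes with over without a UMI of Irf4 or Nr4a1 (left; dotted line at 2-fold) and for barcodes without one in Ga or Gc over Gb (right; dotted line at 1.5-fold). On the left 34 of 36 genes lie beyond the dotted line in each library and Wdr12 lies below 1, and on the right most genes lie near 1.

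Every role group shared the difference, with single genes apart. The C/D box genes had ratios of 4.30 in Ga and 4.69 in Gc for Nop56, 4.67 and 4.86 for Nop58, and 2.59 and 2.41 for Fbl. In the H/ACA particle, Gar1 had a ratio of 6.98 in Ga (5.99–8.14) and 7.14 in Gc (6.17–8.28), the highest of the 36 in Gc. Nhp2 had 6.60 and 5.93, and Dkc1 had 2.67 and 3.12. Nop10, at 154 CPM with and 103 CPM without in Ga and at 145 CPM and 90.6 CPM in Gc, had ratios of only 1.49 (1.33–1.66) and 1.61 (1.44–1.79). Transcripts for the proteins of 1 particle thus differed in their ratios by more than their counting intervals.

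Npm1 and Ncl, with the most UMIs, had ratios below the member median. Npm1 was at 1341 CPM with and 594 CPM without in Ga, a ratio of 2.26, and had a ratio of 2.15 in Gc. Ncl was at 1127 CPM with and 352 CPM without in Ga, a ratio of 3.21, and had 3.03 in Gc. Nolc1 reached 4.68 in Ga and 4.61 in Gc. Among the polymerase I genes, Mybbp1a had 5.79 in Ga and 6.22 in Gc, Ddx21 had 3.55 and 3.42, and Polr1a had 2.62 and 2.39. Polr1b, a core subunit of the polymerase, had 3.84 (2.93–5.03) in Ga and 2.91 (2.22–3.79) in Gc.

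All 11 small subunit factors were at least 2-fold higher with a UMI in both libraries. Tsr1 was at 62.7 CPM with and 10.2 CPM without in Ga, a ratio of 6.18, and had 7.04 in Gc. Rrp12 had 5.55 in Ga and 6.96 (4.99–9.74) in Gc, from few UMIs. Utp20 had 5.46 and 5.15, and Ltv1, another late factor, had 4.85 and 4.40. The lowest of the group was Utp15, an early processome protein, at 2.13 in Ga (1.66–2.73) and 2.14 in Gc (1.70–2.68), whose intervals include ratios under 2, as did those of Noc4l. Between these lay Heatr1 and Wdr75, which act with Wdr43 early on the precursor, Rrp9, a protein of the U3 snoRNP, and Wdr43, Nop14 and its partner Noc4l, with ratios from 2.28 to 3.74 in Ga.

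Of the 11 large subunit factors 10 were at least 2-fold higher. Rrs1, which helps to load ribosomal RNA and proteins onto the large subunit precursor, was at 92.3 CPM with and 11.8 CPM without in Ga, a ratio of 7.83 (6.36–9.66), and had 6.54 in Gc. Gnl3 had 4.88 in Ga and 5.44 in Gc, Ppan had 4.87 and 5.24, and Nop16 had 5.10 and 4.35. Bop1 had the lowest ratio of the 10 in Gc, at 2.07 (1.63–2.61), and had 2.62 in Ga. Its partner Pes1 had 3.24 in Ga and 2.81 in Gc. Nop2, a ribosomal RNA methyltransferase, Noc2l with its partner Noc3l, and Nip7, a factor of precursor processing, had ratios between 2.62 and 3.69 in Ga.

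Wdr12 went the other way inside cells of the same library. It was at 120 CPM with and 297 CPM without in Ga, a ratio of 0.405 (0.361–0.453), and at 136 CPM with and 329 CPM without in Gc, a ratio of 0.414 (0.374–0.458). A Wdr12 UMI was present in 26.6% of barcodes with Irf4 or Nr4a1 and in 48.7% of those without in Ga, and in 28.1% and 51.5% in Gc. Its ratio was also under 1 in the small classes of the other libraries, at 0.363 in Gb, 0.386 in Ha and 0.342 in Hb, from 7 to 13 UMIs each. In Ga and Gc the direction of Wdr12 was therefore opposite to that of both partners of its complex.

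Barcodes without a UMI of Irf4 or Nr4a1 had nearly the same summed member level in every library. It was 2310 CPM in Ga and 2257 in Gc, and 2320 in Gb, 2298 in Ha and 2316 in Hb. Ga over Gb gave 0.996 (0.978–1.01) for these barcodes, against 1.33 over all Cd3+ barcodes, and Gc over Gb gave 0.973 (0.956–0.990), against 1.24. At the level of genes, 3 members were at least 1.5-fold higher in Ga over Gb, against 6.71% of measured genes, and 1 in Gc over Gb, against 7.00%, and 0 were lower in either, against 4.89% and 4.88%. The 3 were Utp20 at 1.79 (1.42–2.25), Ppan at 1.63 (1.25–2.13) and Tsr1 at 1.54 (1.12–2.15), and the 1 was Utp20 at 1.82 (1.47–2.28). Wdr12 was at 0.696 in Ga over Gb (0.665–0.729) and at 0.773 in Gc over Gb (0.741–0.807), so its level among these barcodes remained lower in both. The even sum therefore holds a lower Wdr12 and, in Ga, a median member ratio of 1.14. Without Npm1, Ncl and Wdr12 the sum in these barcodes was 1068 CPM (1050–1087) in Ga and 997 CPM (981–1013) in Gc. It was 941 CPM (921–962) in Gb, 945 CPM (927–962) in Ha and 966 CPM (948–985) in Hb. On that sum Ga was above the other libraries beyond the counting intervals, and Gc was second.

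**Figure D3:**
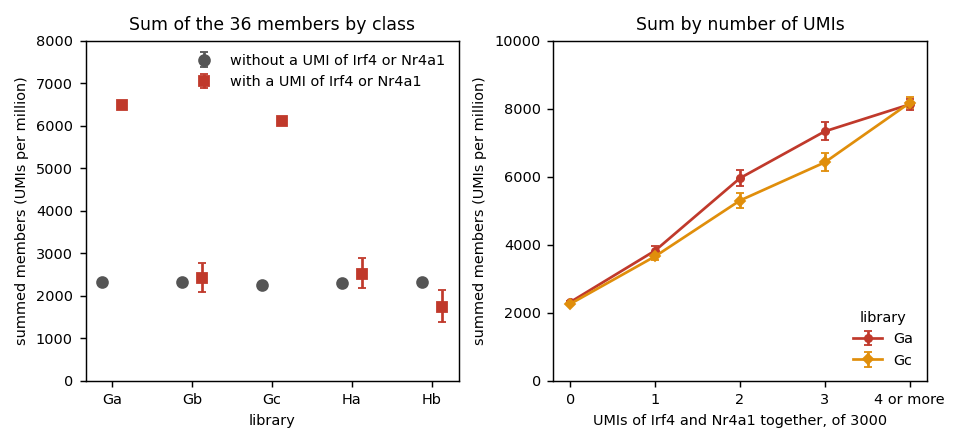
Summed level of the 36 members in CPM with 95% Poisson intervals, by library for barcodes with and without a UMI of Irf4 or Nr4a1 (left) and by the number of their UMIs in Ga and Gc (right). Barcodes without such a UMI lie between 2257 and 2320 CPM in all 5 libraries, and the sum climbs to 8125 CPM in Ga and 8170 CPM in Gc at 4 or more UMIs.

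In Gb, Ha and Hb the few barcodes with a UMI did not show a difference of that size. The sum was 2417 CPM with and 2320 CPM without in Gb, a ratio of 1.04 (0.903–1.20). In Ha it was 2519 and 2298 CPM, a ratio of 1.10 (0.950–1.26), and in Hb 1725 and 2316 CPM, a ratio of 0.745 (0.597–0.918). Without Npm1, Ncl and Wdr12 it was 1083 CPM with (872–1330) and 941 CPM without in Gb. On that sum Ha had 1210 CPM with (982–1474) and 945 CPM without, and Hb 784 CPM with (560–1068) and 966 CPM without. These classes held 28, 27 and 17 barcodes, and only 6, 7 and 4 members were expected to reach 5 UMIs in them. None of these was at least 2-fold higher, against 4.73% of measured genes in Gb, 4.33% in Ha and 3.67% in Hb. At least 2-fold lower were 1 in Gb, 2 in Ha and 2 in Hb, Wdr12 in each, against 10.1%, 11.3% and 7.45%. The classes also held other cells, since the 6 myeloid markers summed to 667 CPM in that of Gb and the regulatory T cell gene Foxp3 was in 6 of the 27 barcodes of that of Ha. The part of these cells in the values was not tested. Barcodes with a UMI in Ga and Gb differed by a ratio of 2.68 (2.34–3.10).

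A few very deep barcodes moved the unthinned values of Gb and Ha. Without thinning the ratio of with over without was 1.81 in Gb, with 23 members at least 2-fold higher, against 15.0% of measured genes, and 1 barcode of 278399 UMIs held 24.5% of the UMIs of its class. Without barcodes over 50000 UMIs the ratio was 0.974, with 0 of 33 measured members, against 4.68%. In Ha it was 1.40 with 10 members, against 6.10%, and without the deep barcodes 1.17 with 3, against 4.30%. In Ga and Gc it was 2.70 and 2.54 with all barcodes and 2.70 and 2.53 without the deep ones.

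The member level was graded with the number of Irf4 and Nr4a1 UMIs. In Ga it was 2310 CPM at 0 UMIs, 3825 at 1, 5956 at 2, 7333 at 3 and 8125 at 4 or more, over 4069, 266, 130, 134 and 405 barcodes. In Gc it was 2257, 3656, 5298, 6420 and 8170 CPM, over 5097, 312, 151, 112 and 417 barcodes. Each step lay beyond the counting intervals of its neighbours. Barcodes with Nr4a1 alone held 4297 CPM in Ga and 4010 in Gc, those with Irf4 alone 5387 and 5195, and those with both 8638 and 8284. Barcodes with Irf4 alone were thus above those with Nr4a1 alone in both libraries.

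Myc, the transcription factor that is known to drive many nucleolar genes, followed the same classes. Myc itself was at 135 CPM with and 8.03 CPM without in Ga, and at 125 and 6.61 CPM in Gc. Barcodes holding Myc together with Irf4 or Nr4a1 had the highest member level, 10611 CPM (10367–10859) over 226 barcodes in Ga and 9639 CPM (9406–9876) over 225 in Gc. Those with Irf4 or Nr4a1 but no Myc UMI had 5172 CPM in Ga and 5082 in Gc. Those with Myc alone had 2883 CPM over 91 barcodes in Ga and 3067 over 94 in Gc, against 2297 and 2242 CPM with none of the 3 genes. A barcode without a UMI of Myc can still express it, since Myc gave few UMIs.

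The 7 members with CACGTG in the 300 bases overlapped the other members in their ratios. In Ga the ratios of with over without were 3.64 for Nop2, 3.24 for Pes1, 6.18 for Tsr1, 3.14 for Wdr43, 4.85 for Ltv1, 5.79 for Mybbp1a and 5.46 for Utp20, with a median of 4.85. The other 24 members with a RefSeq promoter had a median of 3.50 and ran from 0.405 to 6.98. Above the median of all 36 members lay 5 of the 7 and 11 of the 24 in Ga. In Gc it was 4 of the 7 and 12 of the 24, with medians of 4.40 and 3.50. This split was made after the ratios had been seen and was not tested.

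Barcodes with Irf4 or Nr4a1 varied widely in their member UMIs. Of 3000 UMIs, the median barcode with Irf4 or Nr4a1 held 15 member UMIs in both Ga and Gc, and the 10th to 90th percentiles ran from 5 to 40 in Ga and from 5 to 38 in Gc. Barcodes without held a median of 6 in both, with percentiles from 3 to 11. More than 11 member UMIs were found in 60.0% of barcodes with (56.8–63.2) and 6.96% without (6.19–7.78) in Ga, and in 57.3% (54.1–60.4) and 6.12% (5.48–6.81) in Gc. The median number of different members detected was 10 with and 5 without in Ga, and 9 and 4 in Gc. Barcodes with Irf4 or Nr4a1 held 39.2% of all member UMIs of Ga and 34.5% of those of Gc.

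Depth and other cell types differed between the classes. The median barcode held 10459 UMIs before thinning with and 8629 without in Ga, and 10254 and 8422 in Gc. Before thinning the median member UMIs were 57 with and 19 without in Ga, and 55 and 19 in Gc. The 4 hemoglobin genes summed to 51.7 CPM with and 1529 CPM without in Ga, and to 479 and 888 CPM in Gc, and the 5 B cell markers to 58.1 and 163 CPM in Ga. Without barcodes holding 2 or more UMIs of other cell types the ratio of the sums was 3.04 in Ga and 2.85 in Gc. Cd4 was lower with than without, at 88.1 and 193 CPM in Ga and 88.0 and 196 CPM in Gc, and the part of this in the difference was not tested. Among barcodes with a Cd4 UMI and no Trdc UMI the ratio was 2.13 in each library, with 29 members at least 2-fold higher in Ga, against 7.54% of measured genes, and 30 in Gc, against 7.12%.

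The other lists of the pathway had lower median ratios than the members, and their ranges overlapped. Over all measured genes, 10.1% were at least 2-fold higher with in Ga and 9.69% in Gc. Of 42 other small subunit assembly genes, 18 were at least 2-fold higher with in Ga and 18 in Gc, with medians of 1.88 and 1.91. Among the 5 most abundant, Aatf had ratios of 1.83 in Ga and 2.02 in Gc, Nol7 had 1.84 and 1.74, Ddx10 had 1.57 and 1.58, Utp3 had 1.45 and 1.53, and Emg1, a ribosomal RNA methyltransferase, had 1.24 and 1.42. Of 49 other large subunit assembly genes, 31 were at least 2-fold higher in each library, with medians of 2.33 and 2.34. The highest gene of that list had 8.21 in Ga and 8.15 in Gc, above the highest member ratios of 7.83 and 7.14. Gtpbp4, a nucleolar GTP-binding protein, had 3.08 in Ga and 3.50 in Gc and Rrp1 had 1.79 and 1.78, while Ddx24 had 1.09 and 1.14, Nsa2 had 1.13 and 1.07, and Nop53 had 0.860 and 0.944. The lists were written with earlier results of these data known, so their counts describe these libraries only.

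Of 15 other RNA polymerase I genes, 2 were at least 2-fold higher in Ga, against 10.1% of measured genes, and 3 in Gc, against 9.69%. Their medians were 1.66 and 1.60. Ubtf, the upstream binding factor of ribosomal DNA, had 1.78 and 1.84, Tcof1, treacle, had 1.75 and 1.76, and Taf1d had 1.66 and 1.56. Polr1d, a subunit shared with RNA polymerase III, had 1.53 and 1.60, and Taf1b had 0.908 and 0.768. The cytosolic ribosomal proteins, parts of the subunits that the members help to assemble, had a median ratio of 1.04 in both libraries. In each, 3 of their 81 measured genes were at least 2-fold higher, against the same shares of all measured genes. Rps24 had 1.03 in Ga and 0.995 in Gc, Rps27 had 0.834 and 0.871, Rps29 had 0.955 and 0.942, and Rps21 had 0.774 and 0.792. Most assembly factors were thus higher in these barcodes, while the abundant ribosomal protein genes named here were level or lower. Of all 81 measured ribosomal protein genes, 52 had a ratio above 1 in Ga and 53 in Gc. Their median of 1.04 lay above that of all measured genes, 0.941 in Ga and 0.960 in Gc.

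**Figure D4:**
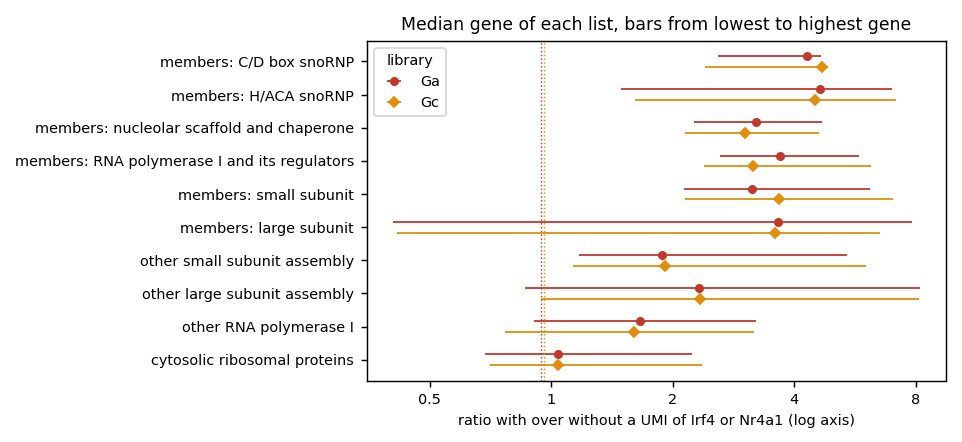
Median ratio of barcodes with over without a UMI of Irf4 or Nr4a1 for the genes of each list, on a log axis, with bars from the lowest to the highest gene and dotted lines at the median of all measured genes, for Ga and Gc. The 6 member groups have medians above 3 and the cytosolic ribosomal proteins a median of 1.04, while the large subunit bar reaches down to Wdr12.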

How the data were processed

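The authors deposited UMI counts of mouse cells, by gene and barcode, as 2 aggregated matrices. Cell Ranger 6.0.0 and mm10 are named per the submitters' processing notes, while per the file headers the matrices were written by cellranger 7.1.0. No source used here says if aggregation equalised depth or if intronic reads or the strand were used, and equalised depth would lower the totals of the deeper libraries. Libraries were told apart by the suffix of the barcode, and no source maps a suffix to a sample.

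Barcodes with at least 500 UMIs, at most 10% mitochondrial UMIs and at least 1 UMI of the 3 Cd3 genes were thinned to 3000 UMIs without replacement with seed 11, and shallower ones were left out. UMIs were summed per library or class and scaled to 1000000 UMIs. Levels carry exact Poisson intervals, shares Clopper-Pearson intervals and ratios exact conditional binomial intervals, all at 95% and for counting error only. A gene counted as measured when at least 5 UMIs were expected in the smaller side at equal CPM, and as called at 1.5-fold between libraries and 2-fold between classes. The calling step was checked on simulated data. Doublets were not called, since other treatments of them were run as alternatives. Hemoglobin-rich barcodes held at least 1% of their UMIs in hemoglobin genes. No test was run, and DMSO, OVA and clone were not compared.

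The members, lists and classes were chosen with earlier results of these data known. Values in every library are given for the 3 members with most UMIs in each role group and for the 3 highest and 3 lowest ratios of classes in Gc, the library with most such barcodes, and the 5 genes with most UMIs are named for each other list, except 1 that is not reported here. Polr1b, Rrs1, Pes1 and other members outside this rule were named after their values were seen, as were the promoters printed, other than that of Nop2. Python 3.11.15, numpy 2.4.6, scipy 1.17.1, pandas 2.3.3 and matplotlib 3.10.9 were used.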

Additional observations from a re-analysis of the deposited data

How the results depend on the processing

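The results were recomputed under 19 alternative settings. Of 334 sums, ratios and member counts, 250 moved by less than their counting interval or less than 1.5 times, and 84 moved by more. Only a ratio whose main interval left out 1 could count as reversed, and 0 did. Sums and counts could not, nor could Hb over Ha, which went from 1.01 to 0.989 without thinning. Of 540 member ratios with over without in Gc, 0 reversed. That of Wdr12 ran from 0.348 to 0.529, and those of the other members from 1.45 to 8.81. No paired analysis was possible because each library is its own sample and none is tied to a group, and no replicate could be left out for the same reason. The median log2 ratio of all measured genes lay between -0.088 and 0.023 over the comparisons. Values are given as summed levels in CPM, then ratios of sums. Thinned to 1500 UMIs, Ga was at 3061, and with over without was 2.94 in Ga and 2.80 in Gc. In Hb over Ha 1 of 36 measured members was then higher. Thinned to 5000 UMIs, Gc was at 2926, and with over without was 2.68 in Ga and 2.51 in Gc. Higher with than without were then 1 of 17 measured members in Ha and 1 of 11 in Hb. Without thinning, the levels were 3369 in Ga, 2392 in Gb, 3169 in Gc and 2331 in Ha, and Ga over Gb was 1.41, Gc over Gb 1.33 and Hb over Ha 0.989. With over without was then 2.70 in Ga, 1.81 in Gb with 23 members, 2.54 in Gc and 1.40 in Ha with 10 members. With another random seed Gc was at 2912 and with over without in Ga was 2.75. With classes from all UMIs of a barcode, with over without was 2.51 in Ga and 2.33 in Gc. In Ha 1 of 18 measured members was then higher. No share of all genes is given beside these counts of 1 member, so no conclusion is drawn from them. Scaled to UMIs outside ribosomal protein and mitochondrial genes, the levels were 3814 in Ga and 3529 in Gc, and 2844 in Gb, 2815 in Ha and 2860 in Hb. Scaled to a median ratio of 1, with over without was 2.98 in Ga and 2.82 in Gc. With a Cd4 UMI and no Trdc UMI, Ga was at 2619 and Gc at 2519, Ga over Gb was 1.12 with 13 members, Gc over Gb 1.07 with 9 members and Gc over Ga 0.962, and with over without was 2.13 in Ga and 2.13 in Gc. Without the 6% of barcodes with most UMIs, Ga was at 2958 and Gc at 2794, Ga over Gb was 1.27 and Gc over Gb 1.20, and with over without was 2.69 in Ga and 2.62 in Gc. Without barcodes holding 2 or more UMIs of other cell types, Ga was at 3510 and Gc at 3179, Ga over Gb was 1.51, Gc over Gb 1.37 and Gc over Ga 0.906, and with over without was 3.04 in Ga, 2.85 in Gc and 1.48 in Ha. With no minimum of expected UMIs, 7 members were higher with than without in Gb, 8 in Ha and 4 in Hb. Members with very few UMIs in the smaller class entered these counts. The share of all genes was not computed at that setting, so the counts cannot be set against a background and no conclusion is drawn from them. Summed without Npm1 and Ncl, the levels in the same order were 1861, 1729, 1366, 1360 and 1366, Ga over Gb was 1.36 and Gc over Gb 1.27, and with over without was 2.94 in Ga and 2.87 in Gc. With the class from Irf4 alone, with over without was 2.94 in Ga and 2.86 in Gc, and with Nr4a3 and Egr2 added to the class 2.74 and 2.56. Summed without Npm1, Ncl and Wdr12, an alternative chosen after seeing the data, the levels in that order were 1597, 1431, 943, 946 and 966, Ga over Gb was 1.69, Gc over Gb 1.52 and Gc over Ga 0.896, and with over without was 3.65 in Ga, 3.68 in Gc and 1.28 in Ha. The cause of these changes was not tested. The depth limits Gb, Ha and Hb most, where 17 to 28 barcodes held a UMI of Irf4 or Nr4a1 and few members could be measured.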

Other observations

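Barcodes without a Cd3 UMI entered no comparison of member levels above. Over all 5 libraries, 139 hemoglobin-rich barcodes held 10 member UMIs, or 24.0 CPM (11.5–44.1), with Ncl at 9.59 CPM, Npm1 at 2.40 CPM and Wdr12 at 0. Of these 139, 15 held a UMI of Trac, a constant gene of the T cell receptor. Another 77 barcodes without Cd3 held 2 or more UMIs of B cell markers and had a member level of 3000 CPM (2781–3232), with Wdr12 at 99.6 CPM, and 75 of the 77 held Trac. The remaining 188 had 4183 CPM (4016–4355), with Wdr12 at 140 CPM, and 178 of them held Trac. Wdr12 was thus below its lowest level among the 5 whole libraries of Cd3+ barcodes, 264 CPM, in each of the 3 sets. It was also below that level in the Cd3+ barcodes with Irf4 or Nr4a1 of Ga and Gc. A low Wdr12 is therefore not particular to barcodes without Cd3. In the hemoglobin-rich set all members together held only 10 UMIs, so a Wdr12 of 0 says little there.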
